A study of Bos taurus with 4 samples.

Results

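The loci described here are the 8-oxoG peaks of bull sperm DNA that were listed at the same place of the genome in both animals of the study. A locus of one deposited list was taken when its interval overlapped an interval of the other list by at least 1 bp. This held for 211 of the 370 loci listed for the bull C13 (57% of that list, Wilson 95% interval 51.9% to 62.0%) and for 225 of the 614 loci listed for the bull C14 (36.6%, interval 32.9% to 40.5%). Some intervals were listed more than once, with a summit each. Counted once, 194 of 353 C13 intervals (55.0%) and 195 of 575 C14 intervals (33.9%) overlapped, and they formed 195 pairs.

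C13 was a fertile and C14 an infertile bull, both 6 years old and of the Korean native striped cattle, and the sources name no treatment for either. In the sonicated sperm DNA of each bull 8-oxoG was oxidised and linked to biotin. The tagged fragments were collected on streptavidin beads, and the strands complementary to the tagged ones were released and sequenced (OG-seq). Input DNA of the same bull was sequenced as well, which gave 4 libraries in all. Each group was therefore 1 animal with 1 captured library, and fertility, animal and library cannot be told apart. The loci were chosen by their presence in both lists, so position, height and width are given as descriptions without a test. Intervals of shares and ratios cover counting error only, and PCR duplicates were handled before the lists were made.

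8-oxoG is the most familiar oxidation product of guanine. It pairs with adenine as well as cytosine, which makes it mutagenic, and the glycosylase OGG1 removes it in base excision repair. Late spermatids and sperm are known to have little capacity for DNA repair and have most of their histones replaced by protamines, so that oxidised bases formed late can remain in the DNA that reaches the egg.

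The paired loci coincided much more closely than the rule asked for. The summit is the base of an interval with the most overlapping captured fragments. The distance between the C13 and C14 summits had a median of 17 bp (95% order-statistic interval 12 to 24 bp, n = 195 pairs), a middle range of 6 to 49 bp and a longest value of 412 bp. An overlap of 1 bp would have allowed a median distance of 580 bp at these widths, and the measured distance had a median of 2.82% of what each pair allowed. Summits were at most 10 bp apart in 80 pairs, at most 50 bp apart in 147 pairs (75.4%) and at most 100 bp apart in 167 pairs (85.6%). The same base was the summit in 4 pairs, which were assigned to CD200, POFUT2, RNF122 and AIMP1. The C14 summit lay at the higher coordinate in 111 pairs and at the lower one in 80.

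**Figure D1:**
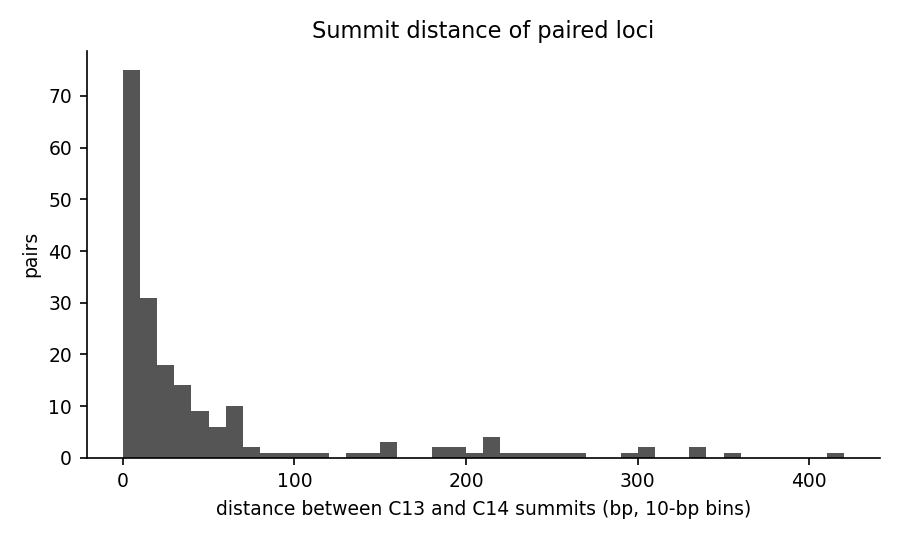
Number of pairs (vertical axis) by the distance between the C13 and the C14 summit in bp (horizontal axis, bins of 10 bp), for 195 pairs. Most pairs stand at the left edge, with a median of 17 bp, and a thin tail runs to 412 bp.

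The overlap itself was also long. It measured a median of 239 bp and at least 123 bp, and it covered a median of 98.7% of the C13 interval and 94.7% of the C14 interval. In 179 of 195 pairs it covered at least 50% of both intervals, and in 79 pairs at least 90% of both. Start and end were identical in 5 pairs, of which the genes were FAM207A (in 2 pairs), DOK5, SEC23IP and C1QTNF7. The 195 pairs shared 55230 bp, which was 90.4% of the length of the overlapping C13 intervals and 84.1% of that of the overlapping C14 intervals.

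Just outside the rule there was an empty stretch. The C13 locus that came nearest without overlap was 210 bp from a C14 interval, and the nearest C14 loci were 200 bp from a C13 interval, while the shortest overlap was 123 bp. Neighbouring intervals of a single list were never closer than 211 bp (C13) or 200 bp (C14) either. The 5 shortest overlaps belonged to loci of FMR1NB (123 bp), ZNF596 (134 bp), MPZL1 (150 bp), SIX2 (181 bp) and PANX1 (183 bp). The FMR1NB locus, on chromosome X of bosTau8 at 30973320 to 30973872, was the one C13 interval that overlapped more than 1 C14 interval. Its C13 pileup of 14 fragments stood against 22 and 14 fragments in the C14 intervals, whose summits lay 18 and 412 bp away.

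Summits lay closer together where more fragments had been counted. In the 138 pairs with a pileup of at least 10 in both bulls the median distance was 11.5 bp (interval 9 to 16 bp), and in the 57 pairs with a C13 pileup under 10 it was 49 bp (27 to 89 bp). Over all listed loci 49.5% in C13 and 77.4% in C14 had a pileup of at least 10. Width moved with it: the median distance was 11 bp for C13 intervals of up to 300 bp and 27.5 bp for wider ones. Of the 17 pairs with summits over 200 bp apart, 8 had more than 1 summit in at least 1 of the bulls and 9 had a single summit in each. The longest distances, named after their values were seen, were those of FMR1NB (412 bp), BET1 (355 bp), POFUT2 (332 bp) and PEX2 (331 bp).

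Intervals with several summits were found mostly among the overlapping loci. In C13 this was 17 of 194 overlapping intervals and 0 of 159 others, and in C14 it was 27 of 195 overlapping intervals and 8 of 380 others. Both bulls had more than 1 summit in 10 pairs, C14 alone in 17 and C13 alone in 7. In those 10 pairs the finer structure recurred as well: the 20 C13 summits lay a median of 7 bp from the nearest C14 summit, and 19 of them lay within 50 bp. In pairs assigned to C14H8orf33 and ST3GAL4 the higher summit was at a different place in each bull, 250 and 199 bp apart.

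Overlapping loci were higher and wider than the other loci of the same list. The pileup, a number of fragments that was not scaled between the bulls, had a median of 13 in the 211 overlapping C13 loci against 6 in the 159 others, and of 30 in the 225 overlapping C14 loci against 13 in the 389 others. The median width was 286 bp against 212 bp in C13 and 310 bp against 223 bp in C14. The deposited −log10 q reached 5 in 186 of the 211 C13 loci (88.2%, where all C13 loci gave 70%) and in 200 of the 225 C14 loci (88.9%, where all C14 loci gave 68.4%). Presence in both lists favours high loci by construction, so these differences describe the choice.

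The share of loci that overlapped climbed with the pileup in both lists. Of the C13 loci with 4 to 5 fragments, 9 of 74 overlapped a C14 locus (12.2%, Wilson 95% interval 6.53% to 21.5%), and of those with 20 to 74 fragments 53 of 62 did (85.5%, 74.7% to 92.2%). Of the C14 loci with 5 to 9 fragments, 6 of 139 overlapped a C13 locus (4.32%, 1.99% to 9.10%), and of those with 40 to 182 fragments 81 of 108 did (75.0%, 66.1% to 82.2%). This order follows in part from the choice. Loci of 1 interval or 1 stretch each entered as a unit of their own, and the Wilson intervals do not allow for their dependence.

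**Figure D2:**
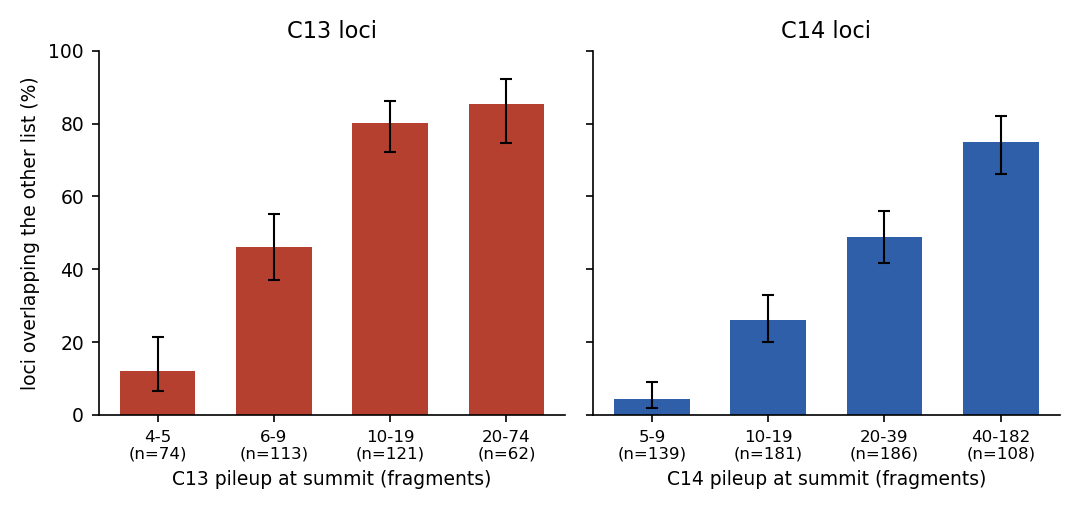
Percentage of listed loci that overlap a locus of the other bull (vertical axis) by pileup at the summit in fragments (horizontal axis, number of loci in brackets), for C13 on the left and C14 on the right. Bars are shares and error bars Wilson 95% intervals, and the share climbs from 12.2% to 85.5% in C13 and from 4.32% to 75.0% in C14.

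Some high loci had no partner. The highest in both lists was assigned to IFITM3, an interferon-induced antiviral membrane protein, on chromosome 11. It had a pileup of 74 in C13 and of 182 in C14, but the intervals were 6.559 kb apart. A C13 locus in ARFGEF1 with 50 fragments lay 268 bp from the nearest C14 interval. The other unpaired C13 loci among the 5 highest were those of RHOU (58 fragments), CDCA7L (37) and CEP162 (32), and in C14 those of PDE5A (117), LOC780876 (98), C14H8orf33 (96) and ADAMTS3 (83). Of all loci that did not overlap, 51 of 159 in C13 (32.1%) and 124 of 389 in C14 (31.9%) lay within 10 kb of a locus of the other bull, and 57 (35.8%) and 153 (39.3%) had none within 1 Mb on their chromosome.

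Within the pairs the C14 pileup was higher in 192 of 195, equal in 2 and lower in 1. The ratio of C14 to C13 fragments had a median of 2.5 (95% order-statistic interval 2.36 to 2.62), a middle range of 2.0 to 3.11 and extremes of 0.80 and 7.0. It reached 2 in 150 pairs (76.9% of the pairs). The lowest local background of a list was 0.135 fragments in C13 and 0.359 in C14, and their ratio of 2.66 was used as the scale of depth. Relative to that ratio the median of the pairs was 0.939. The exact 95% interval of a pair's own ratio held 2.66 in 182 of 195 pairs, lay above it in 6 and below it in 7. These counts depend on the scale. The mapped reads of the captured libraries differ less between the bulls than the lowest backgrounds do, and on that scale the median of the pairs was 1.62, with 63 intervals above it, 132 that held it and 0 below. Which scale is the right one was not tested, so statements on 2.66 hold for the first one only.

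Heights of the same locus followed each other from bull to bull. Across the 195 pairs the pileups had a Spearman rho of 0.817 and a Pearson r of 0.829 on the log10 scale, and the widths a rho of 0.598. The local backgrounds had a rho of 0.791, and fold enrichment over that background one of 0.631. These are descriptions across loci, which share 2 libraries and are not independent replicates.

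**Figure D3:**
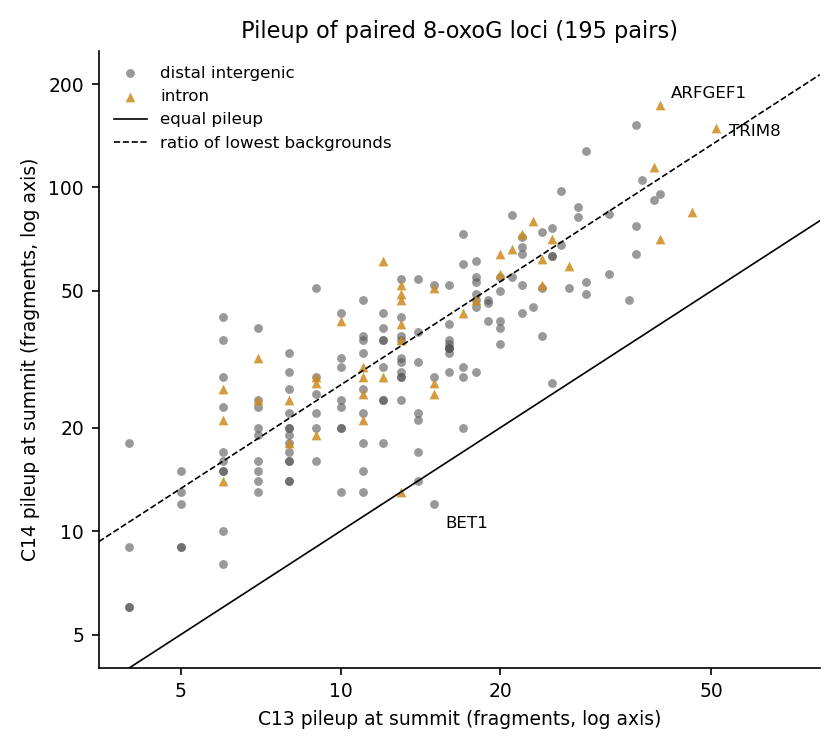
Pileup at the summit in C14 (vertical log axis) against C13 (horizontal log axis), in fragments, for 195 pairs, with distal intergenic loci as grey circles and intron loci as orange triangles. The solid line marks equal pileup and the dashed line a ratio of 2.66, around which the pairs lie, while BET1 alone is below the solid line.

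The pair highest in C13 was also the most enriched in both bulls. It lay in intron 2 of 10 of SUFU, a brake on hedgehog signalling, and was assigned to TRIM8, a ubiquitin ligase of the tripartite motif family, on chromosome 26 of bosTau8 at 23355131 to 23355406 in C13. It had 51 fragments in C13 and 149 in C14, with summits 9 bp apart. The ratio was 2.92 (exact 95% interval 2.11 to 4.10), which held 2.66. Its fold enrichment over the local background was 45.8 in C13 and 108 in C14, and that background was 1.00 and 1.08 times the lowest of the list.

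The highest C14 pileup of any pair was found in ARFGEF1, which encodes an exchange factor for ARF GTPases at the trans-Golgi. The locus lay in intron 32 of 38 on chromosome 14, at 33405583 to 33405812 in C13, with 40 fragments in C13 and 174 in C14. The ratio of 4.35 (3.07 to 6.30) lay above 2.66. Its local background was 45.8 times the lowest in C13 and 169 times in C14, and fold enrichment was 5.71 and 2.84, so the pair was the higher one in C14 by fragments and the lower one by fold.

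ARFGEF1 was among the 6 pairs whose whole interval lay above 2.66, and the others were spread over 4 chromosomes. The pair of MELK, a mitotic kinase, on chromosome 8 at 61283442 to 61283821 in C13 had 36 fragments in C13 and 152 in C14 (ratio 4.22, 2.92 to 6.25). The neighbouring MELK pairs had 17 and 73 fragments (4.29) and 10 and 43 fragments (4.30), so the 3 ratios of that stretch of 8.344 kb were nearly equal. A pair of C14H8orf33, an uncharacterised open reading frame, had 29 and 128 fragments (4.41). A pair in intron 5 of RNF122, a RING-type ubiquitin ligase, had 12 and 61 fragments (5.08, 2.71 to 10.4), with both summits on the same base. The last pairs with the whole interval above 2.66 were lower in C13. They were LYRM1 with 6 and 42 fragments (7.0, 2.96 to 20.1) and PEX2, a factor of peroxisomal protein import, with 9 and 51 fragments (5.67, 2.76 to 13.1). The local background of LYRM1 was 1.00 times the lowest in C13 and 19.3 times in C14, and that of the highest MELK pair 10.9 and 27.2 times. The part of background in these ratios was not tested.

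The pair lower in C14 was assigned to BET1, a SNARE of transport between endoplasmic reticulum and Golgi. It had 15 fragments in C13 and 12 in C14 (ratio 0.80, exact 95% interval 0.342 to 1.83), so the direction was within counting error while the interval lay below 2.66. Equal pileups were counted at a locus of FMC1 (13 fragments in each bull), an assembly factor of ATP synthase, and at the FMR1NB interval given above (14 in each). Ratios near 1 were also found for RGR, a retinal opsin (25 and 27 fragments, 1.08), and CD53, a leukocyte tetraspanin (17 and 20 fragments, 1.18). In 7 pairs the whole interval lay below 2.66. The remaining ones of these were NDST3, a heparan sulfate sulfotransferase (35 and 47 fragments, 1.34), and MIR2404-2 (14 and 17 fragments, 1.21). Neighbours of these loci did not share the low ratio throughout: the other FMC1 pairs had 25 and 71 fragments (2.84) and 9 and 27 fragments (3.0).

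Fold enrichment, the deposited ratio of pileup to local background with 1 added to each, gave a different picture of the same pairs. Fold enrichment therefore differs from the plain ratio of pileup to background, most where the background is low. Its median was 9.59 in C13 and 9.83 in C14, the ratio of the bulls had a median of 1.01 (0.938 to 1.11), and it was higher in C14 in 99 of 195 pairs. The local background had a C14 to C13 ratio with a median of 6.01, above 2.66 in 185 pairs. It stood at the lowest value of the list in both bulls in 6 pairs, in C13 alone in 55, in C14 alone in 0 and in neither in 134.

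**Figure D4:**
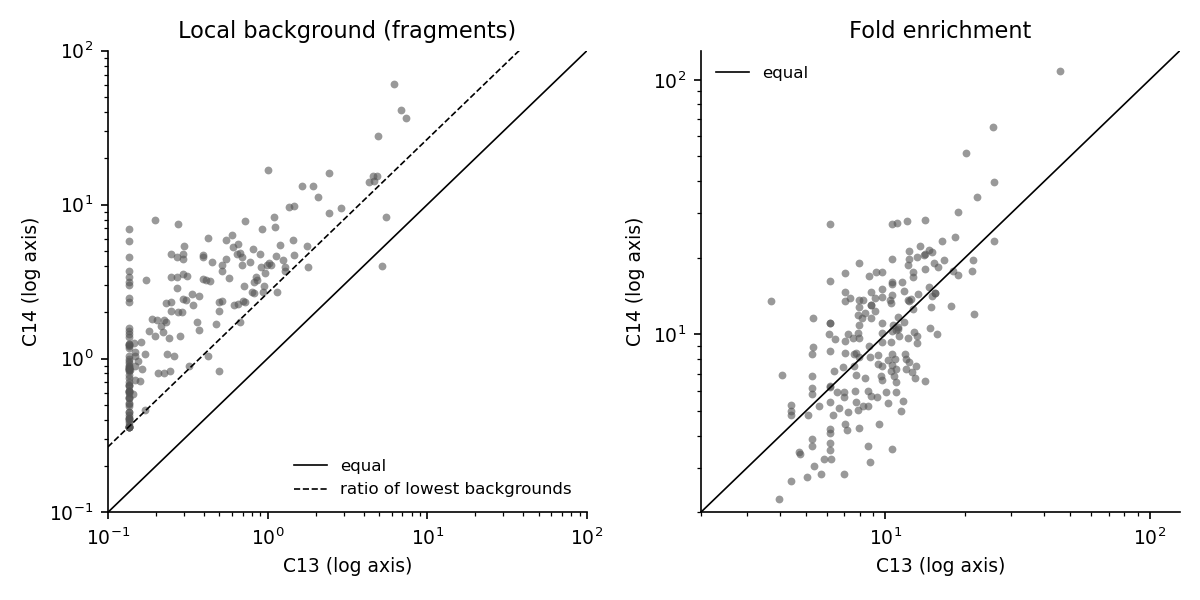
Local background in fragments (left) and fold enrichment (right) of 195 pairs, with C13 on the horizontal and C14 on the vertical log axes. Solid lines mark equality and the dashed line a ratio of 2.66, above which 185 pairs lie in background, whereas fold enrichment scatters about equality with a median ratio of 1.01.

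Overlapping loci stood on a higher local background than the other loci of their list. Relative to the lowest of the list it had a median of 2.05 against 1.29 in C13 and of 6.51 against 2.27 in C14. More than 10 times the lowest was found in 25 of 211 overlapping C13 loci (11.8%, where all C13 loci gave 10.5%) and in 75 of 225 overlapping C14 loci (33.3%, where all C14 loci gave 19.7%, and the others 11.8%). The lowest value itself was held by 62 of the 211 in C13 (29.4%, all loci 30.5%) and 8 of the 225 in C14 (3.56%, all loci 8.14%). The part of local background in the overlap was not tested. When both lists were restricted to loci with a background of at most 2 times the lowest, which kept 216 of 370 C13 and 209 of 614 C14 loci and removed partners as well, the overlapping shares were 15.3% and 16.7%, and the median summit distance was 16 bp.

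By the deposited annotation the paired loci were either distal intergenic or intronic. Introns held 47 of the 211 C13 loci (22.3%, where all C13 loci gave 22.4%) and 47 of the 225 C14 loci (20.9%, where all C14 loci gave 23.1%), and the rest were distal intergenic. None was listed in a promoter, an exon, a UTR or just downstream of a gene. These classes were rare in both lists: over all loci promoters made up 0.541% in C13 and 1.63% in C14, and exons 0% and 0.326%. The 2 promoter loci and the 1 locus in a 3′ UTR of C13 were without a partner, as were the 10 promoter loci, the 2 exon loci and the 1 downstream locus of C14. Symbol and annotation were the same in both bulls in 195 of 195 pairs, as they follow from the position.

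The distance to the assigned transcription start site had a median of 180563 bp in overlapping C13 loci and 129004 bp in the others, and of 183630 bp and 145560 bp in C14. With only loci at a local background of at most 2 times the lowest, 33 C13 and 35 C14 loci overlapped. The medians were 118140 bp in these C13 loci and 129004 bp in the other kept ones, and 120675 bp and 105019 bp in C14. The C13 order was thus reversed, but the interval of its overlapping median, 89794 to 166226 bp, held 129004 bp. Partners were removed as well, so the other kept loci include some that overlapped in the full lists. Within 100 kb lay 63 of the 211 (29.9%, all C13 loci 34.3%, the others 40.3%) and 68 of the 225 (30.2%, all C14 loci 34.4%, the others 36.8%). The pairs nearest to a start site, named after their values were seen, were both upstream of TMPRSS7, a serine protease, at 4468 and 5320 bp in C13. The next lay 5584 bp upstream of OTOR, a secreted protein of the inner ear. The farthest pair was listed 2281850 bp upstream of C6H4orf19.

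Intron pairs numbered 42, and in 21 of them the intron belonged to the gene the locus was assigned to. The other 21 lay in one gene and were assigned to the start site of another. All 10 pairs of ST3GAL4 lay in intron 13 of 14 of KIRREL3, an adhesion molecule of the immunoglobulin superfamily, and the 4 pairs of TTI2 lay in intron 5 of RNF122. The 3 pairs of FMC1 lay in intron 6 of 17 of UBN2. Single pairs of this kind were those of TRIM8 in SUFU, FABP2 in PDE5A, MPLKIP in CDK13 and TSPY in FANCC. The pileup ratio had a median of 2.88 in intron pairs and 2.42 in the 153 distal intergenic pairs. Of the 42 intron pairs, 10 lay in the KIRREL3 intron, so they are not independent and this is a description.

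Some pairs stood alone and others in groups. Linked when no more than 100 kb apart, the 195 pairs fell into 107 groups, of which 71 held 1 pair, and the 19 groups of 3 or more held 90 pairs (46.2%). With a link of 10 kb there were 136 groups, of which 12 held 3 or more pairs, 41 pairs in all (21.0%), and at most 6 in 1 group. At 100 kb the largest held 19 pairs over 156.7 kb of chromosome 1, from 145293925 to 145450629, with 13 assigned to FAM207A (SLX9 in RefSeq), which is named after a yeast factor of ribosome biogenesis, and 6 to POFUT2, which adds fucose to thrombospondin repeats. C13 had 12 to 40 fragments there and C14 18 to 105, with ratios between 1.5 and 2.93 and a median summit distance of 10 bp. All 21 C13 loci of that stretch overlapped, and 23 of its 38 C14 loci.

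The same held for the group assigned to ST3GAL4, a Golgi enzyme that adds sialic acid, on chromosome 29 from 30263843 to 30385491. It held 10 pairs with 8 to 46 fragments in C13 and 24 to 115 in C14, with ratios between 1.78 and 3.48. All 12 C13 loci of that stretch overlapped, and 11 of its 20 C14 loci. Loci listed in C14 alone thus stood among paired ones in both of these stretches, whereas no C13 locus of them was without a partner.

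Smaller groups varied in this. The group of RNF122 and TTI2 on chromosome 27 had 5 pairs from 7 C13 and 8 C14 loci, of which 5 overlapped in each list. The 5 pairs in intron 17 of 33 of WRN, the RecQ helicase mutated in Werner syndrome, had 11, 9, 10, 11 and 17 fragments in C13 and 25, 28, 41, 21 and 43 in C14 in the order of their positions on chromosome 27. Their ratios lay between 1.91 and 4.10, and in that stretch of 39.5 kb all 5 C13 loci and 5 of 9 C14 loci were paired. Over all loci assigned to WRN it was 5 of 6 in C13 and 5 of 15 in C14. The 5 pairs of NR3C1, the glucocorticoid receptor, had 20, 16, 36, 8 and 18 fragments in C13 and 50, 34, 77, 16 and 61 in C14, at a median summit distance of 2 bp, 239388 to 271300 bp upstream of the start site. All 5 C13 loci and 5 of 6 C14 loci of that stretch were paired. The 4 pairs of FAM107A, an actin-associated protein, had 8 to 18 fragments in C13 and 20 to 55 in C14, and those of PAK1, a kinase acted on by Rac and Cdc42, had 6 to 14 and 15 to 38, with every PAK1 locus of that stretch paired (4 of 4 in C13, 5 of 5 in C14). The 4 pairs of ADAMTS3, a secreted metalloprotease that acts on procollagen, had 13 to 24 and 36 to 62, and lay in its intron 17 of 21, where 6 of 7 C13 and 5 of 7 C14 loci were paired.

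The spread of the ratios within a group varied. On chromosome 8 from 74600584 to 74641154, the pair of MIR2404-2 and those of PPP2R2A, a regulatory subunit of protein phosphatase 2A, had 14, 6 and 20 fragments in C13 and 17, 8 and 39 in C14. The ratios were 1.21, 1.33 and 1.95, under 2.66 as in most pairs (83 of 195 lay above it), and the intervals of both PPP2R2A ratios held 2.66. All 4 loci of each list in that stretch were paired. The MELK group on the same chromosome had ratios from 4.22 to 4.30, whereas those of the RNF122 and TTI2 group ran from 1.67 to 5.08.

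Chromosomes differed in how much of the C13 list recurred. On chromosome 29, 19 of 20 C13 loci overlapped (95%, Wilson 95% interval 76.4% to 99.1%), and on chromosome 1 it was 29 of 35 (82.9%, 67.3% to 91.9%). On chromosome 4 it was 15 of 37 (40.5%, 26.3% to 56.5%) and on chromosome 11 it was 4 of 15 (26.7%, 10.9% to 52.0%). The C14 share ran from 52.6% on chromosome 29 (20 of 38) to 22.2% on chromosome 11 (4 of 18) among these. Chromosomes 1 and 29 carry the 2 largest groups, whose loci are not independent of each other. No pair lay on chromosome 20, with 1 locus in C13 and 5 in C14, or on chromosome 23, with 6 in C14.

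**Figure D5:**
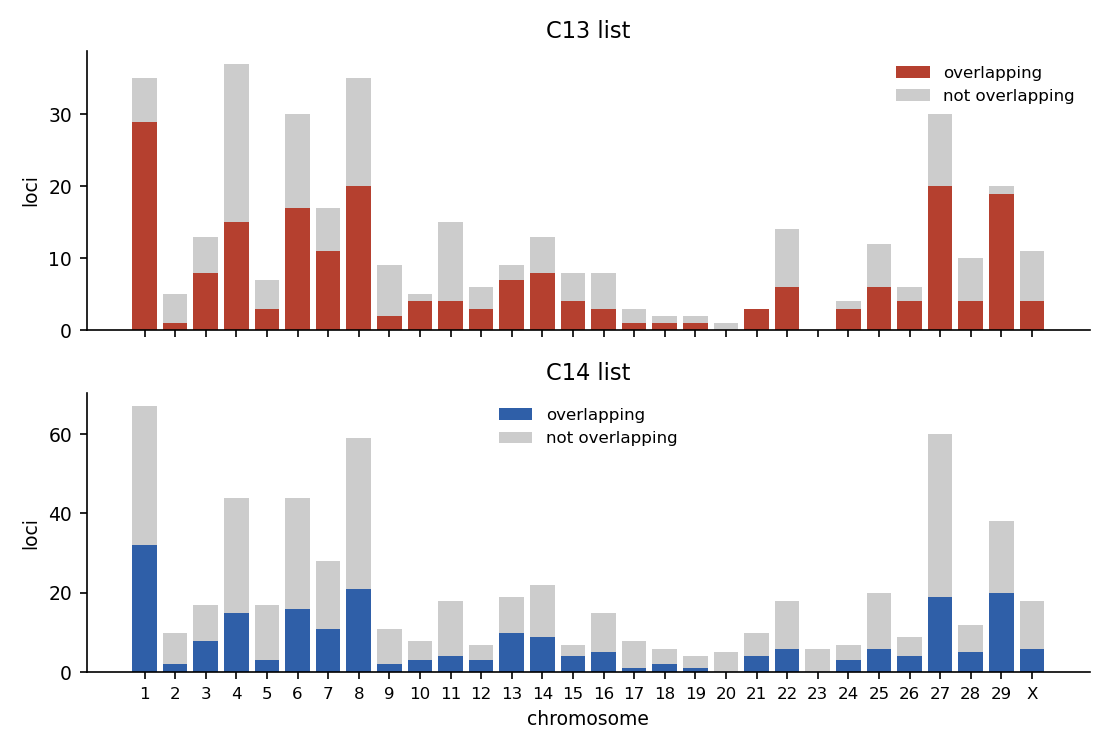
Number of listed loci per chromosome (horizontal axis) in C13 (upper panel) and C14 (lower panel), with the overlapping loci coloured and the others grey. Chromosome 29 is almost filled in C13 (19 of 20), while on chromosome 4 most C13 loci are grey (15 of 37 overlap).

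The pairs were assigned to 106 genes, 56.4% of the 188 genes of the C13 list and 36.4% of the 291 of the C14 list. The lists had 126 genes in common, so 20 shared genes had no locus at a common position. Their nearest C13 and C14 loci were a median of 4.17 kb apart, from 0.779 to 328 kb, and within 10 kb for 13 of them. MET, MAPK8, ACO1, IFITM3 and SIM1 were among these 20. Of the 106 genes, 66 had 1 pair, 20 had 2 and 20 had 3 or more, and in 41 genes every listed locus of both bulls overlapped.

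Genes of the lists drawn up for DNA damage and sperm function were seldom listed in either bull, and at most 1 gene of each had a pair. Shares within these lists therefore rest on few genes. Over all genes, 56.4% of those listed in C13 and 36.4% of those listed in C14 had a pair. Of 45 genes of 8-oxoG and DNA repair, WRN, the only one listed in C13, had pairs and ERCC4, an endonuclease of nucleotide excision repair, was listed in C14 without a partner. Of 33 genes drawn up for the acrosome, the sperm surface and other sperm proteins, TSPY, which belongs to a Y-linked family of spermatogonia and is no acrosome gene, was the only one listed in C13. It had 1 pair on chromosome 8, in the FANCC intron, with 13 fragments in C13 and 49 in C14, and IZUMO2 and LYZL4 were listed in C14 without one. Of 23 antioxidant enzymes none had a pair, and GSTA4 was listed in C14. Glycosyl- and sulfotransferases were matched by the start of their symbols, which found POFUT2 and ST3GAL4 with 16 pairs, among 8 such genes in C14 and 2 in C13. That match leaves out other enzymes of this kind with a pair, such as NDST3 and WBSCR17 (GALNT17 in RefSeq).

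Single pairs were found for the cell adhesion gene CDH11, a type II cadherin, with 16 fragments in C13 and 34 in C14, and for GRIK1, a kainate receptor subunit, with 9 and 28. The summits of both pairs lay 1 bp apart. CDH10, CDH12 and CDH2 were listed in C14 alone and PCDH7 and GRIK2 in C13 alone. Of the miRNA genes, MIR2285C had 2 pairs, with 11 and 7 fragments in C13 and 26 and 19 in C14, and MIR2404-2 had the pair given above. The C13 list held 3 miRNA genes and the C14 list 8, and the others had no pair.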

How the data were processed

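The data were OG-seq peak lists of sperm DNA from 2 bulls (C13 and C14), each from 1 captured and 1 input library. According to the study's methods and the labels, the authors aligned reads to bosTau8 with Isaac and removed duplicates with Picard. They called peaks with MACS2 against input (fold above 2, q below 0.05) and annotated them with ChIPseeker. The deposited pileup is a signal in whole fragments, not scaled between bulls. The deposited −log10 q-values and fold enrichment (a ratio) are those of the caller, and its p-values (2 columns) were not used. The lists hold no library depth. The ratio of the lowest local backgrounds served as its scale, and the mapped reads stated for the captured libraries as an alternative added after seeing the data.

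Overlaps, widths (both ends counted) and distances were computed with Python 3.11.15, pandas 2.3.3, numpy 2.4.6 and scipy 1.17.1, on coordinates as deposited. Distinct intervals were paired, with the highest summit of each. Local background was (pileup + 1)/fold − 1. Pairing and pileup ratios were tested on simulated data. Gene names came from the ARS-UCD2.0 RefSeq table (105 of 106 gene numbers matched). No genome of the build was used, so no sequences are printed.

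Members and gene lists were chosen with earlier results of these data known. Named were the 5 highest and lowest pileup ratios among pairs with both pileups of at least 10, the 5 highest C14 pileups, the 10 genes with most pairs, listed genes with a pair, the 5 shortest overlaps and the 5 highest unpaired loci of each list. The alternatives changed overlap, thresholds, background, summits, height measure and linking distance.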

Additional observations from a re-analysis of the deposited data

How the results depend on the processing

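Of 65 alternative values, 49 stayed within 1 SD, the interval or 1.5 times of the reported one, and 16 moved. The C13 and C14 shares of overlapping loci became 50.3% and 30.3% when summits had to lie within 100 bp, and 69.5% and 45% when −log10 q had to reach 5. A reciprocal overlap of 50% gave 32.6% in C14. Keeping loci with a local background of at most 2 times the lowest gave shares of 15.3% and 16.7%, a median pileup ratio of 2.22, an intron share of 15.2%, a median distance to the start site of 118140 bp and 27 genes with a pair. It kept 216 of 370 C13 and 209 of 614 C14 loci. Linking pairs at 10 kb in place of 100 kb left 21.0% in place of 46.2% of the pairs in groups of 3 or more. Fold enrichment in place of pileup gave a median ratio of 1.01. Taking all pairs of listed summits, an alternative added after seeing the data, gave a median summit distance of 25 bp. With mapped reads of the captured libraries as the depth scale, also added after seeing the data, the median ratio of the pairs over the scale was 1.62 in place of 0.939, and 63 pairs lay above it and 0 below in place of 6 and 7. The cause was not tested. No paired analysis was possible because each group holds 1 library and no test was made. Distinct intervals were already the unit of pairs, so that alternative gave no further value there. Depth limits what absence means: low loci rarely had a partner, and a locus missing from a list may have been present below its threshold.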
